A study of Mus musculus with 19 samples.

Results

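Kidneys of male mice express a group of genes that depend on androgens or that make, convert or take up steroids. The 10 genes described here are the androgen-responsive kidney genes Kap, Acsm3, Acsm2, Slco1a1 and Gusb and the steroid or sterol enzymes Cyp7b1, Hsd3b2, Akr1d1, Hsd11b1 and Hsd11b2. They were chosen by name from earlier results on fasting in these same kidneys. Their fasting effects are therefore given as a description, without a test. Every probe set annotated to 1 of these genes alone was taken, which gave 17 of 45141 probe sets and 10 of 17097 genes.

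The kidneys came from 19 male mice without ischemia-reperfusion injury, with 1 array per mouse. Of the aged-overweight FVB-C57BL/6J F1 hybrids, 5 were fasted and 5 were fed ad libitum. Of the young-lean C57BL/6J mice, 4 were fasted and 5 were fed ad libitum. Fasting lasted 3 days with water only. The aged mice were 73 weeks old and weighed 47 g on average, and the young mice were 10 to 14 weeks old and weighed 22 to 25 g. No transgene is described, diet was the only treatment compared within an age, and each array is a separate animal. According to the paper, animals were bled at sacrifice under ketamine and Rompun anesthesia. Precision is limited by how few arrays each group has.

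The values are log2 levels made by the authors with the RMA algorithm. Array medians lay at 3.44 to 3.49 in aged and 4.15 to 4.21 in young kidneys, so the ages seem to have been normalized apart. Age, strain, body weight and this normalization cannot be told apart. Diets were for that reason compared inside each age, and between ages only the size of the fasting effect was compared. Age, strain, body weight and normalization remain mixed in that comparison too. Arrays of 1 group correlated at 0.988 to 0.997. Marker transcripts of liver stood out in aged fasted mouse 33, with a median log2 level of 9.95 over 11 markers, and in young fasted mouse 339, at 7.74. This median was 3.40 to 6.72 in the ad libitum fed kidneys of both ages. The 3 brightest liver markers lay at 9.99 to 12.15 (Ttr), 7.12 to 11.18 (Serpina1a) and 5.41 to 12.58 (Alb) over all kidneys. Several members are given without both mice below.

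As background, testosterone from the testis reaches the proximal tubule cell and raises kidney transcripts such as those of Kap and Gusb. Mouse kidney is known for its large sex differences in transport and metabolism, many of which depend on androgens. Steroids are also converted in the tissue itself, by hydroxysteroid dehydrogenases that oxidize or reduce single positions of the steroid, by reductases and by hydroxylases. The pair Hsd11b1 and Hsd11b2 acts on glucocorticoids in opposite directions, with Hsd11b1 regenerating active corticosterone and Hsd11b2 inactivating it in the collecting duct.

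A window of 250 bases before and 50 bases from the annotated start was found for 8 of the 10 genes, 9 windows in all (RefSeq, GRCm38.p6). Cyp7b1 and Hsd11b2 had none. The windows of Hsd3b2 and Akr1d1 are shown because these genes differed in their fasting effect between ages, and those of Kap and Acsm2 because their probe sets lie at the top of the arrays and stayed under the fold minimum. Capitals mark the letters AGAACA or, on the other strand, TGTTCT, a half-site of the glucocorticoid receptor.
Hsd3b2 (chr3:98724494-98724793, minus strand): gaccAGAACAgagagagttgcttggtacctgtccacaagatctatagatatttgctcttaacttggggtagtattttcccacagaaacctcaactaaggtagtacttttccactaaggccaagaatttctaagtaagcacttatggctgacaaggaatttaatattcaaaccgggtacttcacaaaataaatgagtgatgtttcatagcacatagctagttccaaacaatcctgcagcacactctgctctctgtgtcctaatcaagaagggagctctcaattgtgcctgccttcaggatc
Akr1d1 (chr6:37529923-37530222, plus strand): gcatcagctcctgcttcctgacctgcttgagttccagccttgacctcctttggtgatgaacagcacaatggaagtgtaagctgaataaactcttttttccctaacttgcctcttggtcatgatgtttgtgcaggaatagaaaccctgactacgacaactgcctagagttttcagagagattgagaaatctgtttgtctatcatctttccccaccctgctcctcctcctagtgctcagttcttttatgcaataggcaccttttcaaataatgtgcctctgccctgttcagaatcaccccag
Kap (chr6:133853618-133853917, minus strand): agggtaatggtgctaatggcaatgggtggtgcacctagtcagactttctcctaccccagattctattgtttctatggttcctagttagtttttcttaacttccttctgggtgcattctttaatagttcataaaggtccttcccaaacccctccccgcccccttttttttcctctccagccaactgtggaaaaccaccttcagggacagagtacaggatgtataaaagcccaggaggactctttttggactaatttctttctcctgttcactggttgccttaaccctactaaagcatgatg
Acsm2 (chr7:119554090-119554389, plus strand): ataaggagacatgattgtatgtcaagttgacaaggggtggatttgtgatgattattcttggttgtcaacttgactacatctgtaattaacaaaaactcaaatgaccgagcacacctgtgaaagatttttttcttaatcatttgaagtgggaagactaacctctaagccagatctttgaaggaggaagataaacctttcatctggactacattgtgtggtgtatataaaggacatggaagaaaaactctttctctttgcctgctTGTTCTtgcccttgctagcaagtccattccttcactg
The half-site was found on either strand in 2 of the 9 windows. In Hsd3b2 it ran from base -246 to -241 before the start, and in the first window of Acsm2 it lay on the opposite strand at bases 14 to 19. Of all 32851 windows of the same length, 19% held it. The letters GTTAAT or ATTAAC, a half-site of the tubular factor HNF1, were found in 1 of the 9 windows, that of Acsm2 at bases -166 to -161, against 7.1% of all windows. The matches of the 2 motifs did not overlap. A match is only a run of letters and does not show which receptor or factor, if any, binds it. These windows leave out distant sites.

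Calls required an adjusted p no higher than 0.05 (limma, Benjamini-Hochberg over all probe sets) and at least a 1.5-fold change, and each gene is represented by its brightest probe set. In aged kidneys, 5 of the 17 probe sets were called lower in fasted mice and 0 higher. Over all probe sets, 0.879% were called lower and 1.01% higher. By gene, 4 of 10 were called lower and 0 higher, beside 1.28% lower and 1.39% higher over all genes. In young kidneys, 9 of the 17 probe sets were called lower and 0 higher, where 2.68% of all probe sets were lower and 2.63% higher. By gene, 6 of 10 were called lower and 0 higher, beside 3.53% lower and 2.95% higher over all genes. Since the genes were chosen with these contrasts known, nothing is read from the excess.

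The fold change was negative for 15 of the 17 probe sets in aged and 16 of 17 in young kidneys. The median log2 fold change of the 10 genes was -0.48 in aged and -0.72 in young kidneys, against -0.01 over all genes in each. The 2 diets were without overlap at 7 of the 17 probe sets in aged kidneys, against 7.25% of all probe sets, and at 13 of the 17 in young kidneys, against 17.2%. These are whole-kidney RNA levels, so fewer cells of a type and less RNA per cell cannot be told apart.

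**Figure D1:**
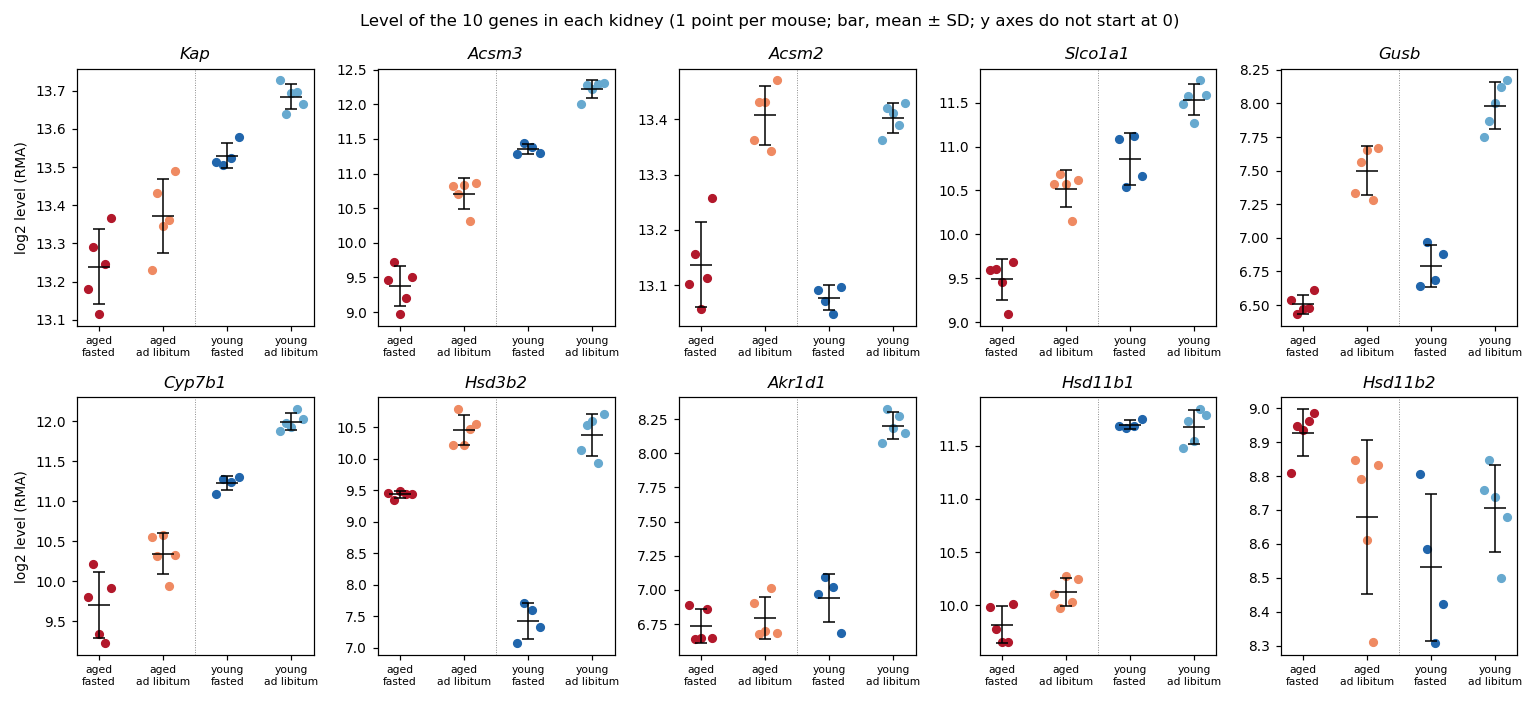
Log2 level (RMA) of each of the 10 genes at its brightest probe set, 1 point per mouse, with mean and SD, for aged fasted, aged ad libitum fed, young fasted and young ad libitum fed kidneys. The y axes differ between panels and do not start at 0. Hsd3b2 lay between 7.08 and 7.71 in young fasted kidneys, below the 9.92 to 10.70 of young ad libitum fed ones, while Akr1d1 overlapped between diets in aged kidneys.

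Kap, the kidney androgen-regulated protein of the proximal tubule, differed little between diets. Its log2 level was 13.18, 13.29, 13.11, 13.25 and 13.37 in aged fasted kidneys, against 13.23, 13.43, 13.35, 13.36 and 13.49 in aged ad libitum fed kidneys. In young kidneys it was 13.51, 13.50, 13.52 and 13.58 in fasted mice, against 13.73, 13.64, 13.69, 13.70 and 13.67 in ad libitum fed mice. The aged groups overlapped, while all young fasted mice lay just below all young ad libitum fed mice. The log2 fold change was -0.13 (SE 0.07) in aged and -0.16 (SE 0.05) in young kidneys, neither called. Kap was the brightest or close to the brightest probe set of each array, ranking between 1 and 10 of 45141. The highest value of any array was 13.35 to 13.73, so Kap sat at the top of the measured range. How far the scale is compressed there was not tested.

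Acsm2, a medium-chain acyl-CoA synthetase of the proximal tubule, also lay at the top of the arrays. In aged mice Acsm2 had log2 levels of 13.10, 13.16, 13.06, 13.11 and 13.26 in fasted kidneys, against 13.36, 13.43, 13.43, 13.34 and 13.47 in ad libitum fed kidneys. Young mice had 13.09, 13.07, 13.05 and 13.10 after fasting, against 13.36, 13.42, 13.41, 13.39 and 13.43 with ad libitum feeding. All fasted mice lay below all ad libitum fed mice of their age. The differences were small, with log2 fold changes of -0.27 (SE 0.06) in aged and -0.33 (SE 0.05) in young kidneys, under the fold minimum in both. A dimmer probe set of Acsm2, at 10.47 to 11.60 and so away from that top, gave -0.23 (SE 0.13) and -0.32 (SE 0.08).

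Acsm3, a related medium-chain acyl-CoA synthetase, showed the most negative aged fold change of the 10 genes. Its log2 level was 9.46, 9.72, 8.97, 9.21 and 9.51 in aged fasted kidneys, against 10.82, 10.70, 10.83, 10.32 and 10.86 in aged ad libitum fed kidneys. In young kidneys it was 11.29, 11.44, 11.38 and 11.29 in fasted mice, against 12.01, 12.27, 12.22, 12.29 and 12.31 in ad libitum fed mice. The groups were separate at both ages, and the lowest ad libitum fed mice, 40 and 346, stood nearest to the fasted ones. The log2 fold change was -1.33 (SE 0.14) in aged and -0.87 (SE 0.07) in young kidneys, called lower in both. The difference, aged minus young, was -0.46 (SE 0.17) and was not called.

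Slco1a1 encodes the organic anion transporter Oatp1 on the brush border, a male-biased protein that carries steroid conjugates. In aged mice Slco1a1 had log2 levels of 9.59, 9.61, 9.46, 9.09 and 9.68 in fasted kidneys, against 10.57, 10.69, 10.57, 10.15 and 10.62 in ad libitum fed kidneys. Young mice had 11.09, 10.54, 11.12 and 10.66 after fasting, against 11.48, 11.58, 11.27, 11.76 and 11.58 with ad libitum feeding. At this probe set fasted mice were lower without overlap at both ages, with a narrow gap in young kidneys between fasted mouse 343 and ad libitum fed mouse 348. For Slco1a1 the log2 fold change was -1.03 (SE 0.12) in aged and -0.68 (SE 0.13) in young kidneys. The second probe set gave -0.90 (SE 0.18) and -0.67 (SE 0.15), and both probe sets were called lower at both ages. At the second probe set the young groups overlapped, with 9.40 to 10.15 in fasted and 10.15 to 10.53 in ad libitum fed mice. Without young fasted mouse 340, the first probe set gave -0.58 in young kidneys and neither was called there. Without young fasted mouse 344 the second probe set was not called either.

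Gusb encodes lysosomal beta-glucuronidase, which splits glucuronides and is a classic androgen-induced enzyme of mouse kidney. Its log2 level was 6.53, 6.43, 6.47, 6.48 and 6.61 in aged fasted kidneys, against 7.33, 7.57, 7.66, 7.28 and 7.67 in aged ad libitum fed kidneys. In young kidneys it was 6.64, 6.97, 6.68 and 6.88 in fasted mice, against 7.75, 7.87, 8.01, 8.12 and 8.17 in ad libitum fed mice. The diets were far apart at both ages compared with the spread within a group. The log2 fold change was -0.996 (SE 0.09) in aged and -1.19 (SE 0.10) in young kidneys, called lower in both. The second probe set was dim, at 3.08 to 4.47, and gave -0.44 (SE 0.09) and -0.58 (SE 0.12). At 1.4997-fold in young kidneys it was the member just outside the fold minimum.

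Cyp7b1 encodes the oxysterol and steroid 7-alpha-hydroxylase. In aged mice Cyp7b1 had log2 levels of 9.80, 10.22, 9.34, 9.23 and 9.91 in fasted kidneys, against 10.55, 10.32, 10.58, 9.94 and 10.33 in ad libitum fed kidneys. Young mice had 11.10, 11.27, 11.24 and 11.30 after fasting, against 11.87, 11.98, 11.93, 12.15 and 12.03 with ad libitum feeding. The young groups were separate, while in aged kidneys fasted mouse 38 lay above ad libitum fed mouse 40. For Cyp7b1 the log2 fold change was -0.65 (SE 0.18) in aged kidneys, not called although past the fold minimum, and -0.76 (SE 0.07) in young kidneys, called lower. Without aged fasted mouse 38 or without aged ad libitum fed mouse 40 the aged difference was also called. A second probe set gave -0.50 (SE 0.15) and -0.81 (SE 0.08), called in young kidneys. The third lay near the bottom of the arrays, at 2.28 to 2.93, and gave 0.05 (SE 0.07) and -0.04 (SE 0.06).

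Hsd3b2, a 3-beta-hydroxysteroid dehydrogenase, oxidizes the hydroxyl group that pregnenolone and related steroids carry and shifts their double bond. Its log2 level was 9.46, 9.34, 9.48, 9.44 and 9.44 in aged fasted kidneys, against 10.22, 10.78, 10.21, 10.47 and 10.56 in aged ad libitum fed kidneys. In young kidneys it was 7.08, 7.71, 7.60 and 7.32 in fasted mice, against 10.13, 10.53, 10.59, 9.92 and 10.70 in ad libitum fed mice. Fasted mice were lower without overlap at both ages, and the gap was much wider in young kidneys. The log2 fold change was -1.02 (SE 0.10) in aged and -2.95 (SE 0.17) in young kidneys, called lower in both. The young level in fasted mice was 0.129 times that in ad libitum fed mice, ranking 3 from the lowest of 45141 probe sets. Transcripts of the Hsd3b genes are close in sequence, so this probe set may also bind relatives.

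Akr1d1 encodes the steroid 5-beta-reductase, which reduces the double bond of bile acid precursors and of steroid hormones such as testosterone. In aged mice Akr1d1 had log2 levels of 6.89, 6.64, 6.65, 6.86 and 6.65 in fasted kidneys, against 6.90, 6.68, 6.70, 7.01 and 6.69 in ad libitum fed kidneys. Young mice had 6.97, 7.09, 7.02 and 6.69 after fasting, against 8.08, 8.32, 8.18, 8.27 and 8.15 with ad libitum feeding. The aged diets overlapped almost fully, whereas the young groups were separate. For Akr1d1 the log2 fold change was -0.06 (SE 0.09) in aged kidneys, not called, and -1.26 (SE 0.09) in young kidneys, called lower. The second probe set gave -0.09 (SE 0.12) and -1.33 (SE 0.13), with levels of 6.32 to 6.96 in young fasted mice, against 7.69 to 8.10 in young ad libitum fed mice.

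Hsd11b1 showed small differences. Its log2 level was 9.99, 9.78, 9.66, 9.66 and 10.01 in aged fasted kidneys, against 10.11, 9.97, 10.28, 10.03 and 10.25 in aged ad libitum fed kidneys. In young kidneys it was 11.69, 11.66, 11.69 and 11.75 in fasted mice, against 11.48, 11.73, 11.55, 11.84 and 11.79 in ad libitum fed mice. The groups overlapped at both ages. The log2 fold change was -0.31 (SE 0.09) in aged and 0.02 (SE 0.08) in young kidneys, neither called.

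Hsd11b2, its counterpart, was not called at either age. In aged mice Hsd11b2 had log2 levels of 8.81, 8.95, 8.93, 8.96 and 8.99 in fasted kidneys, against 8.85, 8.79, 8.61, 8.31 and 8.83 in ad libitum fed kidneys. Young mice had 8.81, 8.58, 8.31 and 8.42 after fasting, against 8.76, 8.85, 8.74, 8.50 and 8.68 with ad libitum feeding. The groups overlapped at both ages, and the signs were opposite. For Hsd11b2 the log2 fold change was 0.25 (SE 0.10) in aged and -0.17 (SE 0.10) in young kidneys. Single mice moved these values, to 0.16 without aged ad libitum fed mouse 40, to -0.27 without young fasted mouse 339 and to -0.10 without young fasted mouse 343. The median over 6 other collecting duct markers was 7.45 to 8.14 in aged fasted and 7.74 to 8.11 in aged ad libitum fed kidneys, and 7.58 to 7.82 in young fasted and 7.74 to 7.86 in young ad libitum fed kidneys. Their part in the values of Hsd11b2 was not tested.

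**Figure D2:**
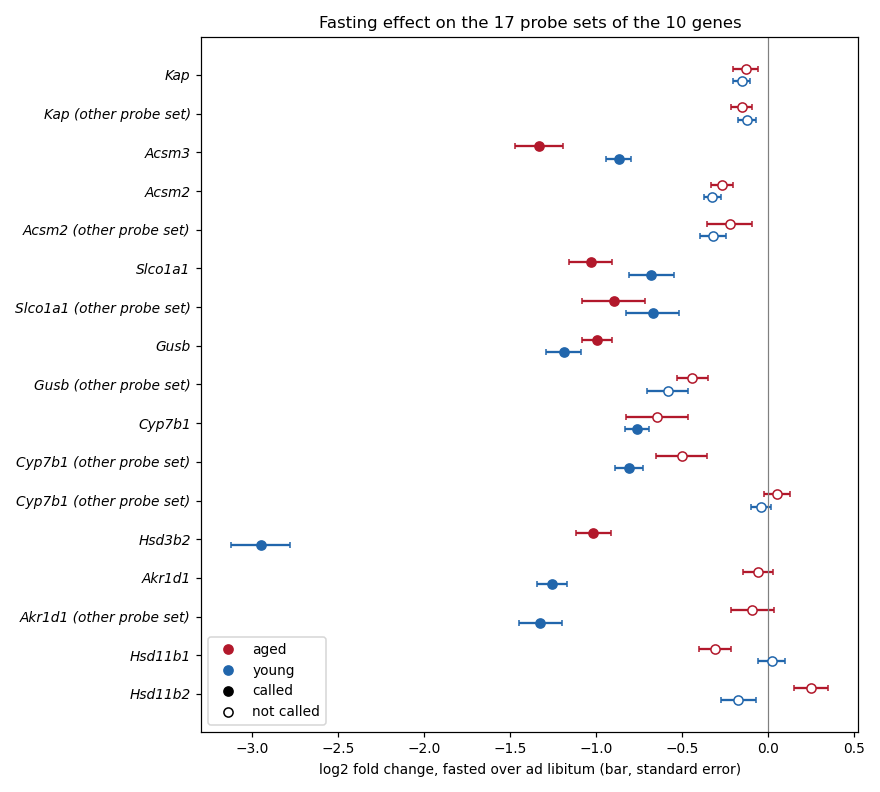
Log2 fold change of the 17 probe sets, fasted over ad libitum fed (x axis; bar, standard error), in aged and young kidneys. Filled points were called. Hsd3b2 and both Akr1d1 probe sets lie further left in young than in aged kidneys, at -2.95, -1.26 and -1.33, against -1.02, -0.06 and -0.09.

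The fasting effect was compared between ages in 1 fit of all 19 arrays, in which a constant offset between the ages drops out. A difference in scale from separate normalization does not drop out, and age, strain and body weight stay confounded. The difference, aged minus young, needed an adjusted p no higher than 0.05 to be called, with no minimum size. It was called positive, which here means a less negative fasting effect in aged kidneys, for 3 of the 17 member probe sets, beside 1.21% of all probe sets, and negative for 0, beside 0.747%. By gene it was positive for 2 of 10 and negative for 0, beside 1.55% and 0.895% of all genes. The genes were Hsd3b2 and Akr1d1. For Hsd3b2 the difference was 1.93 (SE 0.21) on the log2 scale, ranking 5 from the highest of all probe sets. For Akr1d1 it was 1.20 (SE 0.13) and, at the second probe set, 1.23 (SE 0.19). The difference was not called for the other 8 genes, among which it ran between -0.46 for Acsm3 and 0.42 for Hsd11b2. In Gusb it was 0.19 (SE 0.14), in Cyp7b1 0.12 (SE 0.22) and in Slco1a1 -0.35 (SE 0.19).

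Mice within a group differed in several members at once. Aged ad libitum fed mouse 40 had the lowest level of its group in 6 of the 10 genes, against 21.2% of all genes. Mouse 40 was also the highest of its group in 34.6% of all genes, the largest such share of any mouse. Its array thus stood apart in many genes besides the members. It had the lowest proximal tubule marker median of its group, 10.68, and the highest adipocyte marker median, 6.86. Young ad libitum fed mouse 346 was the lowest of its group in 6 of 10, against 25.2% of all genes. Aged fasted mouse 42 was the highest of its group in 6 of 10, against 20.9% of all genes. The 2 lowest mice shared Acsm3, Acsm2, Gusb and Cyp7b1. These mice are named because their counts were the largest among the 19 mice.

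Without aged fasted mouse 33 and young fasted mouse 339, the calls of the members' difference stayed at 3 probe sets. Member probe sets called stayed at 5 in aged and 9 in young kidneys. Hsd3b2 then gave -1.02 in aged and -2.83 in young kidneys, Akr1d1 -0.10 and -1.27, and Acsm3 -1.35 and -0.85. Slco1a1 gave -1.06 and -0.76, Gusb -1.003 and -1.14, and Cyp7b1 -0.67 and -0.72. The median over 9 adrenal cortex markers was 2.88 to 3.05 in aged fasted and 2.82 to 3.17 in aged ad libitum fed kidneys, and 3.21 to 3.34 in young fasted and 3.26 to 3.42 in young ad libitum fed kidneys, below the array medians. The 3 brightest were Cyp21a1, which reached at most 4.80 in any kidney, Mrap, at most 4.03, and Star, at most 3.90. The adrenal isoform Hsd3b1 lay at 2.42 to 3.04. The paper lists a fall under the symbol HSD3B1 in young fasted mice. Its size equals the -2.95 of the Hsd3b2 probe set here, so both names may stand for that probe set. The part of adrenal tissue in the Hsd3b2 signal was not tested. The kidneys expressed proximal tubule markers, with a median over 9 markers of 10.87 to 11.27 in aged fasted and 10.68 to 11.16 in aged ad libitum fed kidneys. In young kidneys the same median was 10.27 to 10.50 in fasted and 10.77 to 11.11 in ad libitum fed mice, without overlap. The summed level of these markers, on the log2 scale, was 13.78 to 13.94 in young fasted and 13.86 to 14.19 in young ad libitum fed kidneys, which overlapped. Of the 9 markers, 3 were called lower and 2 higher in young fasted kidneys, and 2 lower and 1 higher in aged fasted kidneys. Their part in the lower levels of the members was not tested.

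Adipocyte markers were uneven over the kidneys, most of all in young fasted mice. The median over the 4 measured of 7 markers was 6.75, 5.19, 6.18 and 3.54 in young fasted kidneys, against 3.37, 3.89, 3.42, 3.68 and 3.52 in young ad libitum fed kidneys. Young fasted mice were thus higher except mouse 344, which lay among the ad libitum fed ones. The summed level, on the log2 scale, was 5.57 to 10.21 in young fasted and 6.30 to 7.36 in young ad libitum fed kidneys. Cidea, a lipid droplet protein of brown fat, was called higher in young kidneys, by 2.84 (adjusted p = 0.02448, limma), and Adipoq, Ucp1 and Lep were not called. In aged kidneys the median was 2.86 to 6.55 in fasted and 3.85 to 6.86 in ad libitum fed mice, which overlapped, and none was called. In young fasted mouse 344, Hsd3b2 was at 7.32 and Akr1d1 at 6.69, below all young ad libitum fed mice, as in the other young fasted mice. The part of adipocytes in the levels of any member, including these genes, was not tested.

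**Figure D3:**
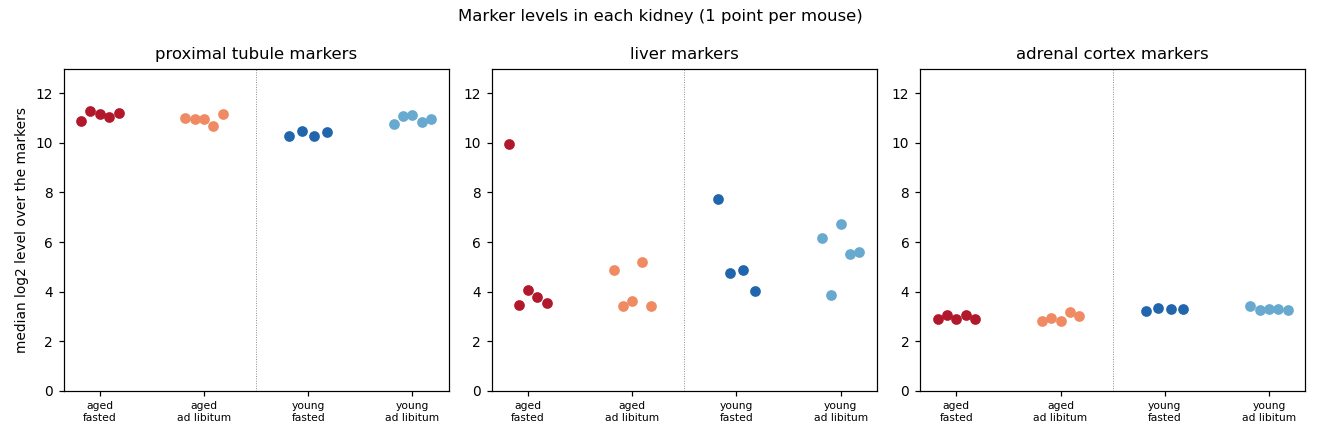
Median log2 level over the proximal tubule, liver and adrenal cortex markers in each kidney, 1 point per mouse, for aged fasted, aged ad libitum fed, young fasted and young ad libitum fed kidneys. Liver markers reach 9.95 in aged fasted mouse 33 and 7.74 in young fasted mouse 339, and adrenal cortex markers stay at 3.42 or below in every kidney.

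The members were set beside 10 lists of related genes, of which 101 of 125 entries had a named probe set. Entries without a probe set annotated to them alone are counted as not measured, even if the array detects them. In aged kidneys 10 of these genes were called lower, 9 higher and 82 neither, where 1.28% of all genes were called lower and 1.39% higher. In young kidneys 13 were called lower, 9 higher and 79 neither, where 3.53% of all genes were called lower and 2.95% higher. The median log2 fold change of the related genes was -0.01 in aged and -0.03 in young kidneys. Like the members, these lists were chosen with earlier results of these data known. Most genes named from them were picked for their small adjusted p. The adjusted p-values below therefore describe these genes and are not independent support.

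Among 9 other androgen-induced or male-biased kidney genes, 3 were called lower at each age and 0 higher. Odc1, the rate-limiting enzyme of polyamine synthesis, fell at both ages. Its log2 fold change was -1.58 (adjusted p = 4.102e-06, limma) in aged and -2.11 (adjusted p = 4.248e-07, limma) in young kidneys. Cyp2j13, a cytochrome P450, changed by -1.14 (adjusted p = 0.005847, limma) and -1.32 (adjusted p = 0.0003103, limma). Slc7a13, an amino acid transporter of the proximal tubule, changed by -0.59 (adjusted p = 0.04109, limma) and -0.89 (adjusted p = 2.506e-05, limma). These values come from the brighter of its 2 probe sets, and the other is not reported here. The paper's list of top down-regulated genes in young fasted mice gives Slc7a13 a larger fall. Cyp4b1, at -0.18 in aged and -0.34 in young kidneys, stayed under the fold minimum like Kap. None of the rest of the list was called. Nudt19, Timd2 and Cyp4a12a were negative at both ages. Cyp2e1 gave 0.08 in aged and 0.12 in young kidneys, and Slc22a12 gave 0.10 and -0.01. The median of the list was -0.27 in aged and -0.34 in young kidneys, beside -0.01 over all genes in each.

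Of the 6 female-biased entries, 3 had a probe set annotated to them alone. Cyp4a14 had none and was not analysed here, although the paper reports it as raised by fasting at both ages, by array and by qRT-PCR. Slc7a12, an amino acid transporter held down by androgens in mouse kidney, rose in aged fasted mice, with log2 levels of 7.89 to 8.93 against 6.11 to 7.93 in aged ad libitum fed mice. The log2 fold change was 1.47 (adjusted p = 0.009, limma) in aged kidneys and -0.20 (adjusted p = 0.6251, limma) in young ones, and the difference was 1.67 (adjusted p = 0.03523, limma). Slc22a7, an organic anion transporter, went the other way from Slc7a12 in aged kidneys, at -2.67 (adjusted p = 7.736e-05, limma), and gave -3.71 in young kidneys (adjusted p = 8.28e-08, limma). The difference between these was not called (1.04, adjusted p = 0.1216, limma). Hao2, a hydroxy acid oxidase, gave 0.09 and 0.03. The 3 analysed genes thus had no common direction.

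Of the steroid receptors and their cofactors, a list that also holds the androgen-induced serine protease Tmprss2, 10 of 12 were measured. None was called in aged kidneys. Tmprss2 gave 0.37 (adjusted p = 0.006866, limma) in aged and 0.48 (adjusted p = 0.000677, limma) in young kidneys, under the fold minimum at both ages. In young kidneys 1 was called, Fkbp5, a co-chaperone induced by glucocorticoids and androgens, which rose by 0.59 (adjusted p = 0.04618, limma). In aged kidneys it gave 0.02, and the difference was not called (adjusted p = 0.5584, limma). The glucocorticoid receptor Nr3c1 gave -0.28 in aged and -0.29 in young kidneys, the mineralocorticoid receptor Nr3c2 0.14 and 0.13, and the coactivator Ncoa2 -0.18 and -0.22. The estrogen receptor Esr1 lay at 2.48 to 3.18 in all kidneys, below the array medians.

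Among 20 measured hydroxysteroid dehydrogenases and relatives, 1 was called lower and 3 higher at each age. Hsd3b6, the relative of Hsd3b2 that lies beyond Hsd3b3 on chromosome 3, fell by a like amount at both ages. Its log2 fold change was -0.81 (adjusted p = 0.0001247, limma) in aged and -0.88 (adjusted p = 0.001736, limma) in young kidneys, with a difference of 0.06 (adjusted p = 0.9367, limma). Hsd3b4, on the other side of Hsd3b2 and known as a ketosteroid reductase of kidney, gave 0.11 in aged and -0.53 in young kidneys. It was under the fold minimum, but the difference of 0.64 was called (adjusted p = 0.0257, limma). Hsd3b3 gave -0.10 and -0.31, and Hsd3b5, close to background, 0.12 and -0.34. Within this gene cluster the Hsd3b2 probe set thus had the largest difference between ages, 1.93.

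The 3 enzymes that rose were Hsd17b4, Hsdl2 and Rdh16, which act in fatty acid and retinoid metabolism as well as on steroids. Rdh16 changed by 1.17 (adjusted p = 3.311e-05, limma) in aged and 0.99 (adjusted p = 2.858e-05, limma) in young kidneys. Hsd17b4, the peroxisomal multifunctional protein, changed by 0.59 (adjusted p = 0.000184, limma) and 0.62 (adjusted p = 0.0001423, limma), and Hsdl2 by 0.61 and 0.69. Hsd17b2, which inactivates testosterone and estradiol, gave 0.20 and 0.12, not called. Hsd17b11 gave -0.35 and -0.41, and H6pd, which supplies NADPH to Hsd11b1, 0.19 and 0.22, all under the fold minimum.

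Of the steroid reductases 8 of 11 were measured, and the 5-alpha-reductases Srd5a1 and Srd5a2 were not analysed here. The aldo-keto reductases split by gene, with 2 called lower and 3 higher at each age. Akr1c18, which inactivates progesterone, had, like Akr1d1, a more negative fold change in young kidneys. It changed by -0.71 (adjusted p = 0.02547, limma) in aged and -1.94 (adjusted p = 0.0001111, limma) in young kidneys, with a difference of 1.23 (adjusted p = 0.03393, limma). Akr1c14, a 3-alpha-hydroxysteroid dehydrogenase, changed by -0.80 and -0.71. Akr1c12, Akr1c13 and Akr1c19 rose by 1.26, 1.34 and 1.04 in aged and by 1.24, 1.13 and 0.90 in young kidneys. These genes are close in sequence, and their probe sets may bind more than 1 of them.

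Cyp7b1 and Akr1d1 belong to the path that turns oxysterols into bile acids. Of 11 other measured genes of that path and of sterol hydroxylation, 1 was called lower and 1 higher at each age. Amacr, the racemase that acts on branched side chains, changed by -0.92 in aged kidneys (adjusted p = 7.274e-06, limma) and by -1.35 in young kidneys (adjusted p = 6.667e-07, limma). Its difference was 0.43 (adjusted p = 0.02572, limma). Cyp27a1, the sterol 27-hydroxylase that makes a substrate of Cyp7b1, rose by 0.62 in aged (adjusted p = 0.0007165, limma) and by 0.96 in young kidneys (adjusted p = 0.0001655, limma). Cyp39a1, another oxysterol hydroxylase, gave 0.20 and 0.52, and Cyp46a1 0.52 and 0.15, all under the fold minimum.

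Acsm1, which lies beside Acsm2 on chromosome 7, gave -0.52 (adjusted p = 0.00584, limma) in aged kidneys, under the fold minimum, and fell by 0.88 on the log2 scale in young kidneys (adjusted p = 0.0003838, limma). Acsm5, on the other side of Acsm2, gave -0.32 and 0.13, neither called. No other gene of the 6 measured acyl-CoA synthetases and relatives was called, and Acss1 and Acss2 ran between -0.14 and 0.08.

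Slco1a6, a close relative of Slco1a1 from the same cluster on chromosome 6, fell at both ages. It changed by -1.24 (adjusted p = 1.134e-05, limma) in aged and -0.96 (adjusted p = 1.485e-05, limma) in young kidneys. Slco3a1 changed by -0.64 (adjusted p = 0.002022, limma) and -0.76 (adjusted p = 0.0005287, limma). Slco1a4 and Slco1a5, which flank Slco1a1 and Slco1a6, gave -0.22 and -0.14 in aged and -0.21 and 0.05 in young kidneys, and Slco2a1 and Slco2b1 gave 0.35 and -0.01 in aged and 0.50 and 0.51 in young kidneys, none called.

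The lysosomal enzymes beside Gusb moved little. Of 12 measured, 0 were called in aged kidneys and 1 in young kidneys, Sgsh, a heparan sulfate sulfatase, which fell by 0.59 on the log2 scale (adjusted p = 0.002975, limma). In aged kidneys Galns gave -0.52 and Glb1 -0.45, and in young kidneys Hexa gave -0.46, all under the fold minimum. The list's median was -0.08 in aged and -0.16 in young kidneys, where Gusb stood at -0.996 and -1.19.

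Conjugating enzymes were measured for 12 of 17 entries. Sult1a1, a sulfotransferase for phenols and estrogens, rose by 0.70 (adjusted p = 0.01225, limma) in aged and by 0.99 (adjusted p = 3.877e-05, limma) in young kidneys. Ugt2b5, a glucuronosyltransferase, gave 0.00 in aged kidneys and fell by 1.18 on the log2 scale in young kidneys (adjusted p = 0.006015, limma), and the difference between ages was not called (adjusted p = 0.2666, limma). Papss1, which makes the sulfate donor, gave -0.46 and -0.51, and Sult1c2 -0.50 and -0.20, all under the fold minimum.

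**Figure D4:**
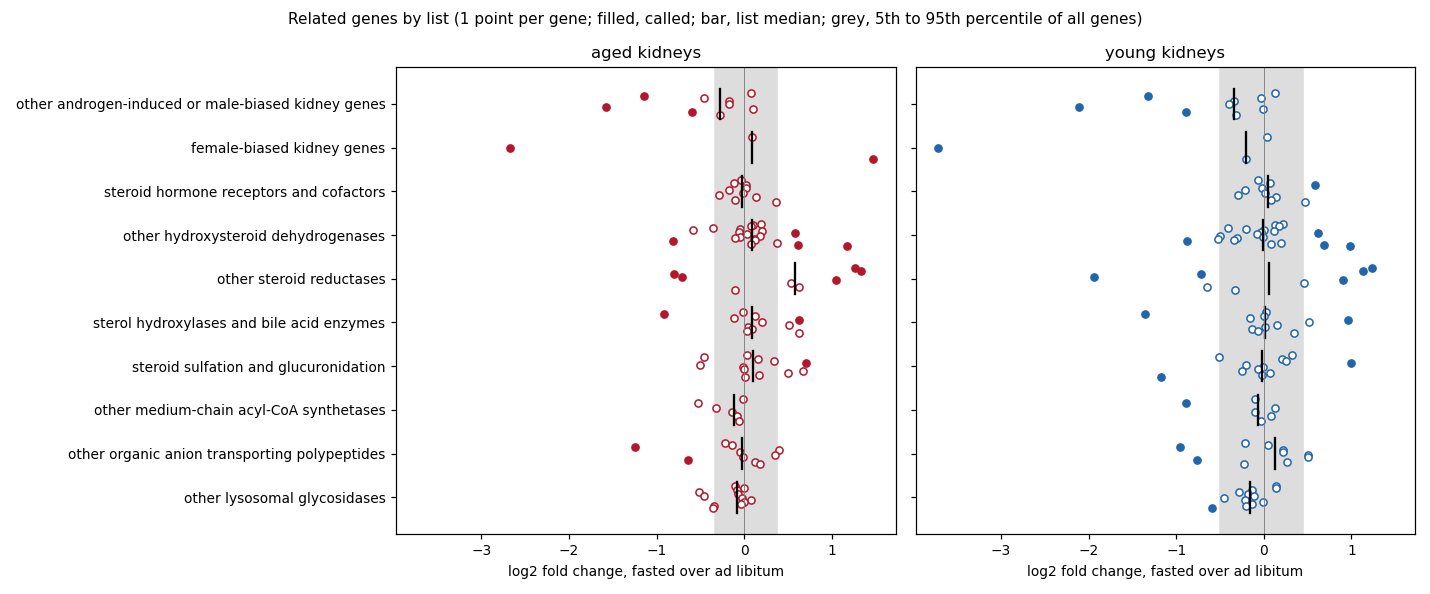
Log2 fold change of the related genes, fasted over ad libitum fed (x axis), by list (y axis), in aged (left) and young (right) kidneys, 1 point per gene at its brightest probe set. Filled points were called, bars mark list medians and the grey band runs from the 5th to the 95th percentile of all genes. The androgen-induced list has its median at -0.27 in aged and -0.34 in young kidneys, and the reductases fall on both sides of 0.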

How the data were processed

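Kidney RNA of 19 male mice was measured with Affymetrix HT MG-430 PM arrays. The authors corrected the background and normalized with RMA by a web-based workflow, and deposited log2 values for 45141 probe sets. Software versions were not given in the sources used here. RMA can compress small changes near the top and bottom of the range. Symbols came from platform annotation: 28898 probe sets carried 1 symbol, 551 several, and 15692 had no entry. The probe set with the highest mean over all arrays stood for its gene.

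From these values, fasted and ad libitum fed mice were compared within each age with limma 3.58.1 in R 4.3.3, after tests on simulated data, with adjustment by Benjamini-Hochberg over all probe sets. Calls needed an adjusted p no higher than 0.05 and at least a 1.5-fold change. The difference between ages came from 1 fit of the 4 group means. Alternatives covered moderation, samples in the fit, normalization, centring, dim probe sets, array weights, variance prior, thresholds, probe set choice, liver-rich arrays and leaving out each array. Scanner files were not used here.

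The members, the related lists and the markers were chosen with earlier results of these data known. All members are named, with up to 4 genes of each related list with the smallest adjusted p in either age, and Esr1, Nr3c1, Nr3c2, Hsd17b2, Hsd17b11, H6pd, Srd5a1, Srd5a2, Acsm1 and Acsm5, and the 3 brightest adrenal cortex and liver markers. Some genes are not reported here. The neighbours Hsd3b3, Hsd3b5, Slco1a4 and Slco1a5 and the genes Akr1c14, Hsd3b4, Hsd17b7 and Hsd17b13 were added after their values were seen. The same holds for Nudt19, Timd2, Cyp4a12a, Cyp2e1 and Slc22a12. Of the marker lists, those of adrenal cortex, liver, proximal tubule, collecting duct and adipocytes are reported. Promoter windows came from RefSeq (GRCm38.p6).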

Additional observations from a re-analysis of the deposited data

Results flagged for a closer look

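Of 40 groups of member values, 3 held a mouse whose gap to the others was large for the range of its group, and chance alone flags about 1 in 20 groups. Young ad libitum fed mouse 346 had the lowest Acsm3 level of its group, 12.01, aged ad libitum fed mouse 40 the lowest Slco1a1 level, 10.15, and aged fasted mouse 33 the lowest Hsd11b2 level, 8.81. The first 2 were also the mice that stood lowest in 6 of the 10 members. Without mouse 346 the young log2 fold change of Acsm3 was -0.92, and without mouse 40 the aged one of Slco1a1 was -1.12.

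The fasting effect, aged minus young, differed for Hsd3b2 by 1.93 and for Akr1d1 by 1.20 on the log2 scale, both chosen with this contrast known. Among the related genes it differed, by limma's test, for Slc7a12 (1.67), Akr1c18 (1.23), Hsd17b7 (0.68), Hsd3b4 (0.64), Amacr (0.43) and Hsd17b13 (-0.58). Without young fasted mouse 344, 1 of the related genes was called for the difference, and without young ad libitum fed mouse 350, 3. Hsd17b7, an enzyme of cholesterol synthesis as well as of estradiol formation, gave 0.18 in aged and -0.50 in young kidneys. Hsd17b13, a lipid droplet protein of liver, gave -0.58 in aged and 0.00 in young kidneys at dim levels of 2.91 to 4.25.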

How the results depend on the processing

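Over all alternatives no member's log2 fold change called in an age or in the difference changed sign, and the 3 member probe sets called for the difference stayed 3 in each setting run. The young Hsd3b2 fold change ran between -3.06 and -2.83, its aged one between -1.08 and -0.93 and the difference between 1.81 and 2.05. With a fold change of at least 2, member probe sets called numbered 3 in aged and 4 in young kidneys, against 5 and 9 at 1.5. Leaving out each array gave 5 to 7 in aged and 8 to 10 in young kidneys. Related genes called numbered 31 in aged and 42 in young kidneys without a fold minimum, and 9 and 8 at a fold change of at least 2, against 19 and 22. Leaving out each array gave 15 to 20 and 20 to 23. For the difference, 6 related genes were called, 2 in an ordinary test without moderation, and 1 to 7 when an array was left out, with 1 without young fasted mouse 344 and 3 without young ad libitum fed mouse 350. Hsd3b2 and both Akr1d1 probe sets were called for the difference in each of these settings. The cause of these changes, beyond the stated change of threshold, arrays or test, was not tested. Values that moved by more than the spread were those of Gusb by the mean of its probe sets (-0.72 in aged and -0.89 in young kidneys), Cyp7b1 in young kidneys likewise (-0.54), Kap in young kidneys after quantile normalization (-0.085) and Acsm2 in young kidneys after centring (-0.35). For the first 2 genes the mean includes a probe set near background. Cyp7b1 in aged kidneys was called with all arrays in 1 fit, without dim probe sets and with array weights. The second Slco1a1 probe set lost its call at both ages in the ordinary test. No paired analysis was possible because the labels do not record which mice were matched. Signal near the top of the range may limit Kap and the brighter Acsm2 probe set, which was not tested. Signal near background limits the third Cyp7b1 and second Gusb probe sets.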
